A study of Mus musculus with 19 samples.

Results

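The genes described here encode the nuclear subunits of respiratory complexes III and IV and of the mitochondrial ATP synthase, together with the electron carrier cytochrome c. Members were the genes whose symbol starts with Uqcr, Cox4 to Cox8 or Atp5, plus Cycs and Cyc1. Each was read by the probe set with the highest mean over the 19 arrays among those with 1 gene symbol. This gave 45 of the 22180 genes measured: 9 of complex III (Cyc1 counted here), 17 of complex IV, 18 of the ATP synthase, and Cycs. Among them, Uqcrh-ps1 and Atp5c1-ps are annotated as pseudogenes. There were 4 probe sets that carried a second symbol and were not used, so Uqcr10 and Cox6c are not among the members, and the subunits encoded by mitochondrial DNA are outside the symbol rule.

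Expression was measured on 19 arrays of thymocytes sorted from C57BL/6 mice, with 12 ng of RNA amplified per array. The Rptor-/- groups came from a CD2-cre mouse crossed with a Raptorfl/fl mouse. CD2-driven Cre is active in lymphoid cells, and the Rptor product, Raptor, brings substrates to the kinase mTORC1. The groups were immature single-positive (ISP) cells (CD4-, CD8+, TCRβ-; 3 Rptor-/- and 4 WT arrays), γδ T cells (CD4-, CD8-, TCRβ-, NK1.1-, Gr1-; 3 Rptor-/- and 3 WT) and DN3a cells, the double-negative stage before the αβ and γδ lineages part (CD4-, CD8-, TCRγδ-, TCRβ-, CD25hi, CD44-, CD28-; 3 Rptor-/- and 3 WT). The γδ gate as labelled lists no antibody to TCRγδ. The labels do not state age, whether WT mice carried Cre, or whether animals were pooled. Nor do they say that replicates came from separate mice, so the errors here may be those of repeated preparation alone.

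Complex III passes electrons from ubiquinol to cytochrome c, and complex IV passes them from cytochrome c to oxygen. Both pump protons across the inner mitochondrial membrane, and the ATP synthase uses the gradient to make ATP. The kinase mTORC1 is known to promote mitochondrial gene expression at transcription and translation. In thymocytes cytochrome c is also known as the trigger of the apoptosome when it leaves the mitochondrion.

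Values are log2 expression units. The 7 ISP arrays had medians of 3.80 to 3.88 and the 12 DN3a and γδ arrays medians of 6.03 to 6.13; levels were therefore compared only within each of these sets. Changes were called with limma over all 22180 genes at a Benjamini-Hochberg adjusted p under 0.05. The signal of Rptor was lower in Rptor-/- arrays of every population, at −0.24 in ISP cells (limma adjusted p = 0.0384), −0.58 in DN3a cells (0.000598) and −0.30 in γδ T cells (0.0489). By an exact two-sided permutation test, p was 0.114 in ISP cells, where 0.0571 was the smallest possible, and 0.1, the smallest possible, in each of the others. It is not known here whether the Rptor probe set lies in the deleted part. The calls in ISP and γδ T cells were lost when only the arrays of that population were fitted. In bulk samples fewer cells of a type and less RNA per cell cannot be told apart.

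In ISP cells most of these genes were lower with the Rptor-/- genotype. Of the 45 members 24 fell, 2 rose (Cox6b2 and Cox7a2l) and 19 were not called, where 6.57% of all genes were called lower and 5.87% higher. The median difference of the members was −0.27 log2 units, a level of 0.831 times WT, against −0.0039 for all genes. Groups did not overlap for 30 members in the lower direction and 2 in the higher, where 8.95% and 7.75% of all genes were of these kinds. Among the 40 members that passed a filter on signal above the median gene, 25 were lower and 2 higher in a refit on such genes, in which 15.7% of genes were lower and 14.2% higher. By complex the median was −0.38 in complex III (6 of 9 lower), −0.27 in complex IV (9 of 17 lower, 2 higher) and −0.23 in the ATP synthase (8 of 18 lower). Without the tissue-restricted isoforms of complex IV and the pseudogenes, these medians were −0.42, −0.35 and −0.23. All 3 Rptor-/- arrays shared the shift, with the median member at −0.25, −0.26 and −0.27 relative to the WT mean, against −0.07, −0.01, 0.11 and 0.00 on the WT arrays.

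**Figure D1:**
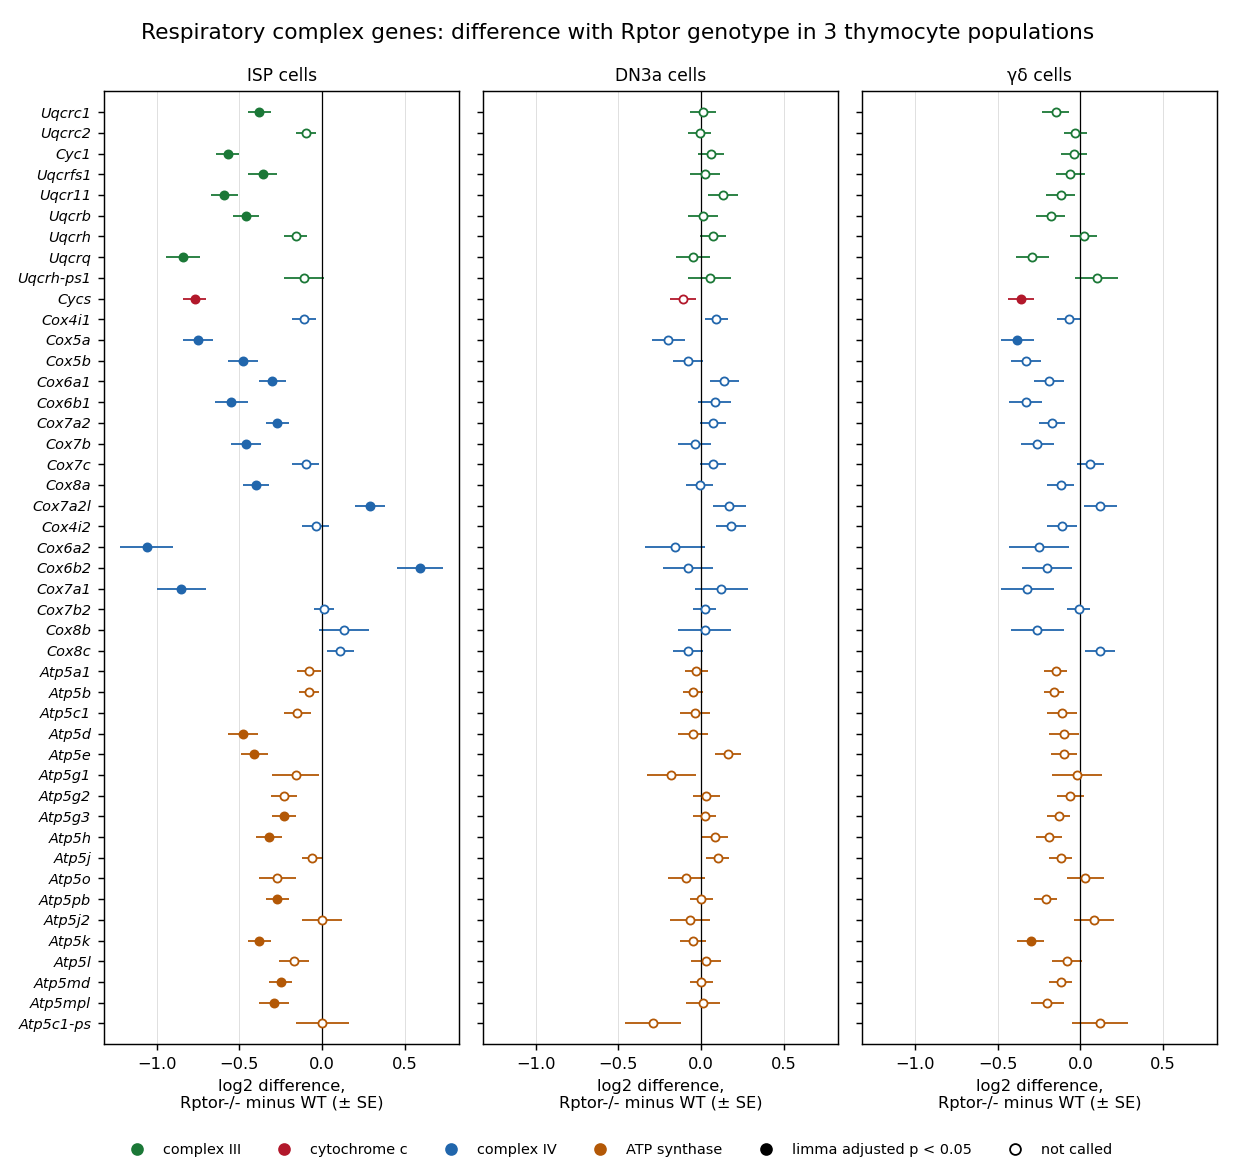
Log2 difference, Rptor-/- minus WT, with its standard error for each of the 45 members in ISP, DN3a and γδ T cells, ordered by complex; filled points passed the limma threshold. In ISP cells 24 filled points lie below 0 and 2 above, in DN3a cells no point is filled, and in γδ T cells the 3 filled points are Cycs, Cox5a and Atp5k.

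The carrier had the smallest p of all members. Cycs measured 9.95, 9.85 and 9.78 on the Rptor-/- ISP arrays, against 10.59, 10.56, 10.76 and 10.60 on the WT arrays. Every Rptor-/- array lay well below every WT array, and the spread within each group was small. The difference was −0.77 (SE 0.07; limma adjusted p = 1.07e-06), or 0.588 times the WT level. Cycs was read by 5 probe sets, 2 of which gave identical values on every array. All of them were lower in Rptor-/- ISP cells, by −1.32 to −0.77.

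In complex III the electron-carrying subunits fell together. Cyc1, which encodes the heme protein cytochrome c1, measured 8.26, 8.21 and 8.16 on the Rptor-/- ISP arrays, against 8.69, 8.89, 8.89 and 8.67 on the WT arrays, a difference of −0.57 (SE 0.07; limma adjusted p = 2.18e-05). Uqcrfs1, the Rieske iron-sulfur protein, differed by −0.36 (limma adjusted p = 0.00706). For both genes the groups did not overlap. Of the large core proteins, Uqcrc1 fell by 0.38 on the log2 scale (limma adjusted p = 0.00122), and Uqcrc2 was not called at −0.10.

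The small subunits of complex III held the largest difference of the complex. Uqcrq, also known as the ubiquinone-binding protein QP-C, measured 7.93, 7.88 and 7.94 on the Rptor-/- ISP arrays, against 8.61, 8.61, 9.07 and 8.72 on the WT arrays. The Rptor-/- arrays agreed closely, and WT replicate 3 was the highest of all. The difference was −0.84 (SE 0.10; limma adjusted p = 6.94e-06). Uqcr11 differed by −0.59 (limma adjusted p = 6.82e-05) and Uqcrb by −0.46 (0.000497). Uqcrh, the hinge protein next to cytochrome c1, had −0.16 and was not called (limma adjusted p = 0.196), although its groups did not overlap. The pseudogene Uqcrh-ps1 had −0.11 and was not called.

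In complex IV the subunits present in most tissues moved as a group. Of 9 such genes 7 fell and 2 were not called, with a median of −0.40, and all 9 had separate groups, each with Rptor-/- lower. Among all genes 6.57% were called lower and 8.95% had separate groups in that direction. Cox5a, a subunit on the matrix side, measured 10.41, 10.19 and 10.23 on the Rptor-/- ISP arrays, against 10.87, 10.91, 11.23 and 11.09 on the WT arrays. All Rptor-/- values were below the lowest WT value, and the difference was −0.75 (SE 0.09; limma adjusted p = 1.04e-05). Cox6b1, on the intermembrane side where cytochrome c docks, differed by −0.55 (limma adjusted p = 0.000466), and the zinc-binding subunit gene Cox5b by −0.48 (0.000729). Cox7b was at −0.46, Cox8a at −0.40, Cox6a1 at −0.30 and Cox7a2 at −0.27, all called. The calls of Cox6a1, Cox7a2 and Cox7b were lost under 6, 4 and 2 of 15 alternatives. Cox4i1, an early-assembling subunit, and Cox7c were not called at −0.11 and −0.10.

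The 7 isoforms known mainly from particular tissues did not move one way. Cox6a2, the heart and muscle form of subunit VIa, measured 5.34, 5.27 and 5.65 on the Rptor-/- ISP arrays, against 6.14, 6.14, 7.08 and 6.59 on the WT arrays. Cox7a1, the heart and muscle form of VIIa, measured 5.73, 5.84 and 5.79 on the Rptor-/- arrays, against 6.26, 6.92, 7.09 and 6.26 on the WT arrays. Both fell with no overlap, by 1.06 (limma adjusted p = 0.000156) and by 0.85 (0.000655) on the log2 scale, and the WT arrays were spread more widely than the Rptor-/- arrays. Both calls were lost when only the ISP arrays were fitted. Cox6b2, the testis form of VIb, measured 8.08, 8.24 and 8.47 on the Rptor-/- arrays, against 7.57, 7.45, 7.93 and 7.72 on the WT arrays. It was the member with the largest rise, 0.59 (SE 0.14; limma adjusted p = 0.00672), while its partner isoform Cox6b1 fell. Cox4i2, Cox7b2, Cox8b and Cox8c, forms known from lung, testis or heart, lay between −0.04 and 0.13 and were not called. Cox7b2, Cox8b and Cox8c had WT ISP means of 2.29, 3.60 and 2.73, below the median gene of these arrays. Little can be read from the lack of a call at such low signal.

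Cox7a2l, a relative of subunit VIIa, measured 9.20, 9.21 and 9.34 on the Rptor-/- ISP arrays, against 8.83, 8.82, 9.09 and 9.11 on the WT arrays. The groups did not overlap, and it rose by 0.29 (SE 0.09; limma adjusted p = 0.0336) while Cox7a2 and Cox7a1 fell. The call of Cox6b2 was lost when only the ISP arrays were fitted and without Rptor-/- replicate 3. The call of Cox7a2l was lost under 8 of 15 alternatives, among them the fit of ISP arrays only, median centring, and leaving out any 1 Rptor-/- array or WT replicate 1 or 2. For ISP cells, fitting the 2 sets of arrays as separate tables is the same fit as ISP arrays only. It is counted again among the 15.

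**Figure D2:**
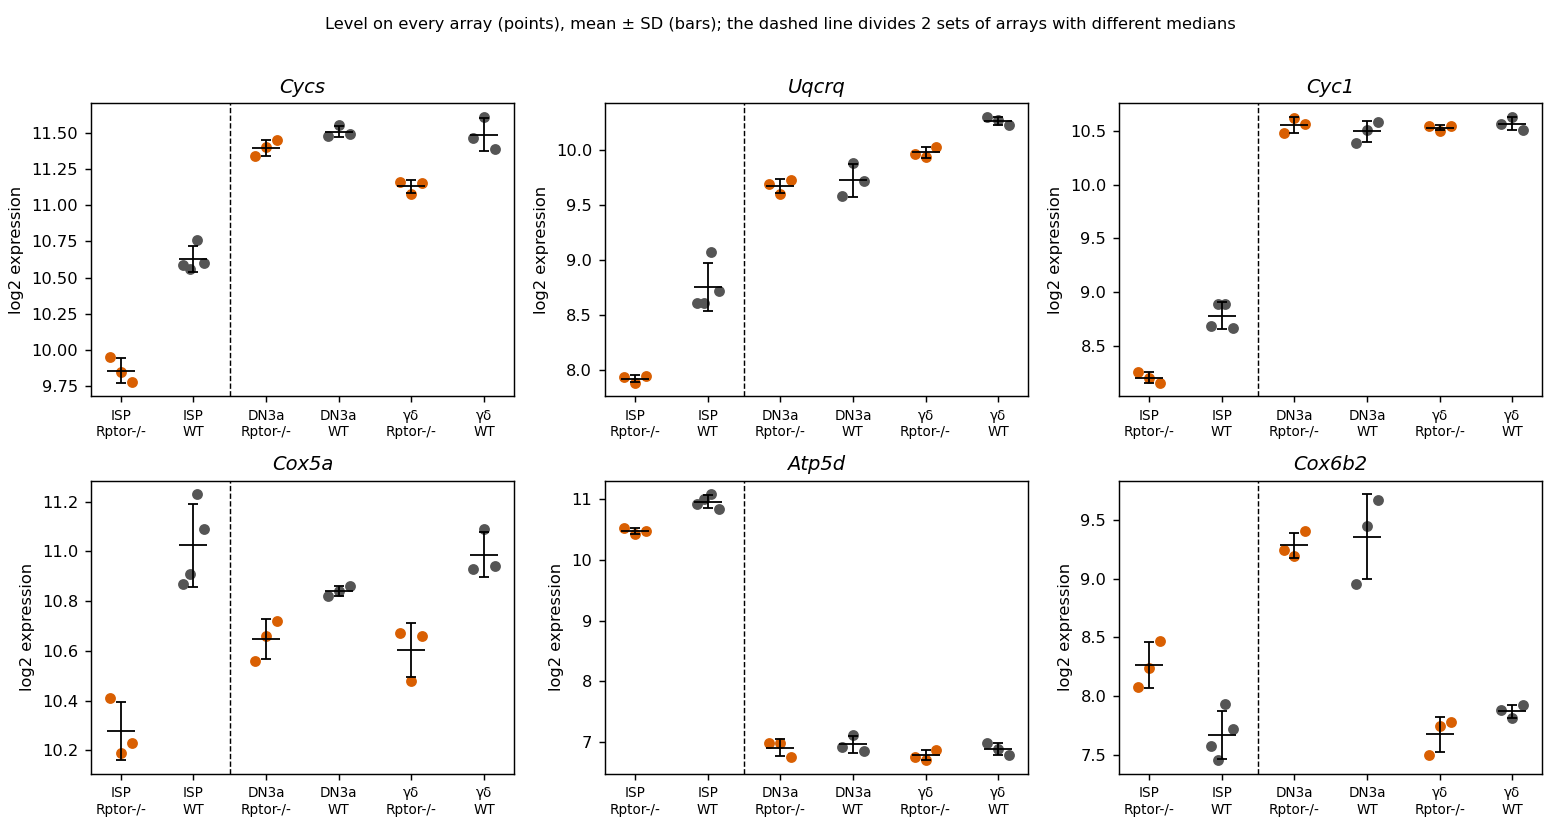
Log2 expression of 6 members on every array (points; orange Rptor-/-, grey WT) with the group mean and SD (bars); the dashed line divides the ISP arrays from the DN3a and γδ arrays, which have other medians. Cycs, Uqcrq, Cyc1, Cox5a and Atp5d show separated groups in ISP cells with Rptor-/- lower, and Cox6b2 shows the opposite order.

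In the ATP synthase 8 of 18 members fell. Neither subunit of the catalytic head was called, and the 8 lay in the stalks, the membrane part and, with 1 of 3 genes, the ring. Atp5b, the catalytic β subunit, measured 11.45, 11.40 and 11.37 on the Rptor-/- ISP arrays, against 11.54, 11.50, 11.44 and 11.45 on the WT arrays. These groups overlapped, and Atp5b and the α subunit gene Atp5a1 were each at −0.08 and not called. In the central stalk, which turns inside the head, Atp5d measured 10.52, 10.43 and 10.48 on the Rptor-/- arrays, against 10.92, 11.00, 11.08 and 10.84 on the WT arrays. No values overlapped, and the difference was −0.48 (SE 0.09; limma adjusted p = 0.000575). Atp5e, also of the stalk, fell by 0.41 on the log2 scale (limma adjusted p = 0.00098), and Atp5c1, its γ subunit, was at −0.15 and not called.

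The membrane part fell in part. Of 5 small membrane subunits 3 fell, led by Atp5k (subunit e, which holds synthase dimers together) with 11.19, 11.07 and 11.10 on the Rptor-/- ISP arrays, against 11.47, 11.44, 11.63 and 11.45 on the WT arrays. Its difference was −0.38 (SE 0.07; limma adjusted p = 0.00133) with no overlap. Atp5mpl and Atp5md were at −0.29 and −0.25 and were called, and Atp5l and Atp5j2 were not, at −0.17 and 0.00. The call of Atp5mpl was lost under 9 of 15 alternatives and that of Atp5md under 7. In the peripheral stalk, which keeps the head from turning, Atp5h (−0.32) and Atp5pb (−0.27) fell, and Atp5o (−0.27) and Atp5j (−0.06) were not called. The genes Atp5g1, Atp5g2 and Atp5g3 encode the same mature c subunit of the rotor ring. Of these Atp5g3 was called at −0.23 (limma adjusted p = 0.0342), Atp5g2 had the same value and was not called (0.0509), and Atp5g1 was at −0.16. The call of Atp5g3 was lost under 8 of 15 alternatives, with −0.09 under quantile normalization.

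Other probe sets of the same genes, where they existed, gave a second reading. In ISP cells the second probe set was at −0.46 for Atp5d, −0.34 for Atp5e, −0.24 for Atp5g2, −0.52 for Cox5b and −0.80 for Cox7b, close to or beyond the one used. For Atp5h the second probe set was at −0.08 against −0.32 for the one used, and the 2 disagree in size.

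Of the 26 calls in ISP cells, 13 were kept under all alternative settings and with each array left out. They were Cycs, Cyc1, Uqcrq, Uqcr11, Uqcrb, Uqcrc1, Cox5a, Cox5b, Cox6b1, Cox8a, Atp5d, Atp5e and Atp5k. The count fell to 16, all lower, when only ISP arrays were fitted and also without Rptor-/- replicate 3.

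**Figure D3:**
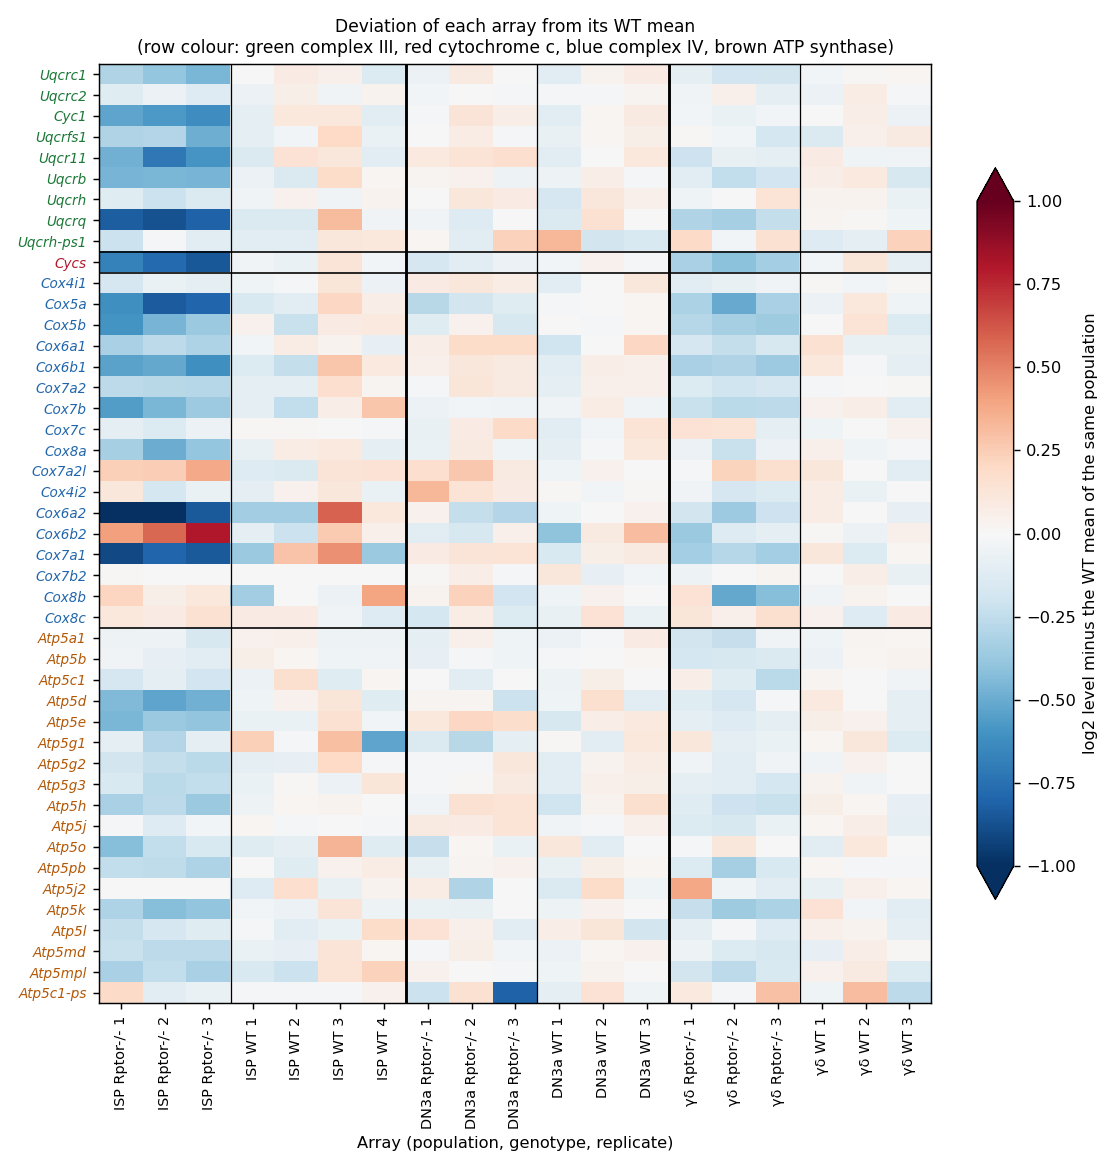
Deviation of each of the 45 members (rows, coloured by complex) from the WT mean of its population on each of the 19 arrays (columns), in log2 units, blue lower and red higher. The 3 Rptor-/- ISP columns are blue in most rows, with medians of −0.25 to −0.27, the Rptor-/- γδ columns are paler, with medians of −0.15 to −0.10, and the Rptor-/- DN3a columns have medians of −0.01 to 0.05.

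The factors that build the same complexes were looked at as lists chosen with earlier results of these data known. Their counts in ISP cells stand against 6.57% of all genes lower and 5.87% higher, and nothing is read from a list as a group. In Rptor-/- ISP cells 4 of 7 measured ATP synthase assembly and inhibitor genes fell, among them Fmc1 (−0.90), known in yeast from assembly of the F1 head, Atpaf2 (−0.49), a chaperone of the α subunit, and Tmem70 (−0.32). Their median was −0.27. Of 22 complex IV assembly factors 5 fell and none rose (median −0.18). Among the 5, Cox10, which makes heme o, the precursor of the heme a of complex IV, was at −0.56 (limma adjusted p = 9.44e-05), Cox19 at −0.36 and Cox18 at −0.30. Of 6 complex III factors 1 fell, Uqcc2 at −0.76, which is needed to make cytochrome b.

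Of 8 measured genes of heme and cytochrome c handling 3 fell and 1 rose, against the same 6.57% and 5.87% of all genes. Alad, an early enzyme of heme synthesis, was at −0.83 (limma adjusted p = 5.32e-06). Hccs, which attaches heme to cytochrome c and cytochrome c1, was at −0.46 (limma adjusted p = 0.000603). Ppox, a late enzyme of the same pathway, was at 0.58 (limma adjusted p = 0.000141). Of 16 regulators of respiratory genes 3 fell and 1 rose, and 1 of 16 is near the share of all genes that rose. Pprc1, a coactivator of the PGC family, was at −0.43, Tfb2m, a mitochondrial transcription factor, at −0.49, and Gabpb2, a subunit of the ETS factor GABP, at 0.53.

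Complex II and mitochondrial carriers and channels were read in the same way, against 6.57% of all genes lower. Of 8 complex II genes 4 fell and 4 were not called (median −0.26), with the iron-sulfur subunit Sdhb at −0.51, the membrane anchor Sdhd at −0.53 and the assembly factor Sdhaf4 at −0.59. Of 6 carrier and channel genes 3 fell and 3 were not called. These were the ADP/ATP carrier Slc25a5 (−0.45), the outer membrane channel Vdac1 (−0.34) and the phosphate carrier Slc25a3 (−0.19).

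Markers of other cells were read on the same arrays, as the mean of each list above the array's median gene. ISP arrays carried the CD8 genes of their gate. The list of 8 DN3a markers stood at 3.83 to 3.98 on Rptor-/- ISP arrays and at 3.21 to 3.37 on WT ISP arrays, and 6 of the 8 were higher in Rptor-/- (Dtx1 by 1.81, Notch3 by 1.36 and Ptcra by 0.63). The 5 ISP markers stood at 5.82 to 5.95 on Rptor-/- and at 5.60 to 6.10 on WT arrays; 1 of the 5, Cd24a, was lower, at −0.51, and the proliferation marker Mki67 was not called at 0.23. Of 7 γδ markers Id3 was lower (−2.29), and 5 of the 7 had estimates above 0. Of 3 markers of mature αβ T cells Klf2 was lower (−1.26), and all 3 estimates were below 0. Of 6 stromal markers Pdgfrb was higher (0.64), and 4 of the 6 had estimates below 0. These single calls stand against 6.57% of all genes lower and 5.87% higher. The part of these markers in the lower respiratory genes was not tested. The myeloid list lay below the median gene on every ISP array, at most −0.93 in Rptor-/- and −0.96 in WT. The NK list lay above it, at 0.72 to 0.74 in Rptor-/- and 0.65 to 0.81 in WT. So did the stromal list, at 0.37 to 0.56 and 0.25 to 0.44, and the dendritic list, at 0.09 to 0.15 and 0.03 to 0.19. The B cell list lay near it, at −0.03 to 0.02 and −0.08 to 0.04. No myeloid, B cell, dendritic or NK cell marker was called.

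The promoters of all members with an entry were searched for 4 motifs on both strands, in windows of 250 bases before to 50 bases after the gene start (RefSeq, mouse GRCm38.p6). Entries were found for 33 members, called or not, with 36 windows. The NRF1 core GCGCATGC was in 7 member genes and in 19.4% of member windows, against 2.71% of all 32851 windows. The ETS core CCGGAAG was in 11 member genes and 30.6% of windows, against 8.86% of all windows. The E-box CACGTG was in 4 genes (11.1% of windows, 7.15% of all) and the YY1 core AAGATGG in 4 (11.1%, 6.34% of all). The ETS and YY1 cores can share the letters AAG, and the NRF1 core can overlap its own reverse complement.

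Among the 19 members with an entry that were lower in Rptor-/- ISP cells, 5 held the NRF1 core and 8 the ETS core, and among the other 14 members these numbers were 2 and 3. A match describes letters in this window and is not a site of binding. The 250 bases before the start are given for Cycs (−0.77 in ISP cells), Cox6a1 (−0.30) and Uqcr11 (−0.59), which hold a match, and for Cox5a (−0.75) and Atp5b (−0.08), a called and an uncalled gene whose windows held none of the 4, with matches in capitals and all other bases in lower case. They lie at chr6:50566570-50566819 (minus strand), chr5:115348959-115349208 (minus), chr10:80406822-80407071 (minus), chr9:57520982-57521231 (plus) and chr10:128083057-128083306 (plus).
Cycs: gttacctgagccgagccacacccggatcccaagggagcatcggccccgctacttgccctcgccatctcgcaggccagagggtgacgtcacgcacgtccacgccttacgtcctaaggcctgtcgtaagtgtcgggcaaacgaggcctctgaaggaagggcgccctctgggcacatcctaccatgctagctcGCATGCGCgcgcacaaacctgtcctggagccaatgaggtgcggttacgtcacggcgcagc
Cox6a1: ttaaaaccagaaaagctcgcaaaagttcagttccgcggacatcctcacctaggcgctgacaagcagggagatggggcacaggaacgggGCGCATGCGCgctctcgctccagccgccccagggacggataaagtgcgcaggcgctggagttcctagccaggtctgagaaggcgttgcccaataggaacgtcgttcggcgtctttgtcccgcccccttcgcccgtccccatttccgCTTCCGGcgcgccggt
Uqcr11: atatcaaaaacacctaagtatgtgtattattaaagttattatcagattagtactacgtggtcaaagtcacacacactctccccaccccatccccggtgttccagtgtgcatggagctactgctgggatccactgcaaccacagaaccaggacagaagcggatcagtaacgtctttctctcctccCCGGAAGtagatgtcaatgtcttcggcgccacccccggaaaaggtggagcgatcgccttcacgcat
Cox5a: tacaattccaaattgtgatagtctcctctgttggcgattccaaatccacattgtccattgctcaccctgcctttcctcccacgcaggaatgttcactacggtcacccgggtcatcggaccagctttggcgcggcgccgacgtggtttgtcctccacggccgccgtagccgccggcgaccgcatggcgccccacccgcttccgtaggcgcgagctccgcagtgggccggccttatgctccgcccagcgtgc
Atp5b: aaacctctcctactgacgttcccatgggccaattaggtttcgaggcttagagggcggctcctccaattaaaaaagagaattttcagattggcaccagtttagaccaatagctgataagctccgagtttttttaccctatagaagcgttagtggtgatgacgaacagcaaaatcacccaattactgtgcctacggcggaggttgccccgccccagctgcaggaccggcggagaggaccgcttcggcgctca
In these letters the NRF1 core of Cycs reads GCATGCGC, its reverse complement, and Cox6a1 holds both orientations overlapping in 1 run as well as an ETS core close to its start. Uqcr11 holds an ETS core, and its NRF1 core runs across the start, with 4 of its bases at the end of the printed sequence, in lower case, and 4 after it.

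In γδ T cells the difference with genotype was smaller. Of the 45 members 3 fell and none rose, where 1.28% of all genes were called lower and 1.77% higher, and 11 members had an unadjusted p under 0.05 (16.3% of all genes, either direction), all 11 lower. The median was −0.12, against 0.00421 for all genes. Groups did not overlap for 22 members in the lower direction and 0 in the higher, where 8.78% and 12.2% of all genes were of these kinds. The median member on the 3 Rptor-/- arrays lay at −0.10, −0.15 and −0.13, and on the WT arrays at 0.02, 0.02 and −0.03. By complex the median was −0.19 in complex IV, −0.11 in the ATP synthase and −0.06 in complex III.

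The 3 called genes were among those that fell in ISP cells. Cycs measured 11.16, 11.08 and 11.15 on the Rptor-/- γδ arrays, against 11.46, 11.61 and 11.39 on the WT arrays, a difference of −0.36 (SE 0.08; limma adjusted p = 0.0135). Its 5 probe sets were all lower, by −0.56 to −0.18. The second probe sets of other members did not all agree in γδ T cells: that of Atp5h was at 0.25 against −0.19 for the one used, and that of Cox7b at 0.00 against −0.26, and both genes are among the 11 with an unadjusted p under 0.05. Cox5a measured 10.67, 10.48 and 10.66 on the Rptor-/- arrays, against 10.93, 11.09 and 10.94 on the WT arrays, a difference of −0.38 (SE 0.10; limma adjusted p = 0.0327). Atp5k measured 9.56, 9.43 and 9.47 on the Rptor-/- arrays, against 9.93, 9.76 and 9.67 on the WT arrays, a difference of −0.30 (SE 0.08; limma adjusted p = 0.0421). In each case all Rptor-/- arrays lay below all WT arrays.

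Several others came near the threshold in γδ T cells without passing it. Cox5b and Cox6b1 were both at −0.33 (limma adjusted p = 0.0638 and 0.0942), and Uqcrq was at −0.29 (0.14). Cyc1, lower in ISP cells, was at −0.04, with 10.54, 10.50 and 10.54 on the Rptor-/- γδ arrays, against 10.56, 10.63 and 10.51 on the WT arrays, which overlap. None of the 3 calls was kept under all alternatives: the count was 0 when only γδ arrays were fitted and without Rptor-/- replicate 2 or WT replicate 2, and 1 without Rptor-/- replicate 3 or WT replicate 1.

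Among the genes of the lists around these complexes, 1 was called in γδ T cells by genotype, from the 16 regulators. Pprc1 rose by 0.43 (limma adjusted p = 0.0236), and it fell in ISP cells; the difference between these was not tested. No assembly factor, heme, complex II or carrier gene was called. On the same arrays 4 of the 5 ISP markers were lower in Rptor-/- γδ cells (Cd8b1 by −1.72, Mki67 by −0.74, Cd8a by −0.53 and Cd24a by −0.33), and the list stood at 1.40 to 1.76 on Rptor-/- and 2.20 to 2.36 on WT arrays. Of 6 NK markers Klrd1 was higher, at 2.10, and Gzma lower, at −0.37. Of 7 γδ markers Zbtb16 (0.74) and Il2rb (0.52) were higher, and 4 of the 7 had estimates below 0. Of 8 DN3a markers Dtx1 (0.57) was higher, and all 8 estimates were above 0. Among all genes 1.28% were called lower and 1.77% higher. The part of these markers in the respiratory values was not tested.

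In DN3a cells no difference of these genes with genotype was detected by limma. Of the 45 members 0 were called, where 0.271% of all genes were called lower and 0.712% higher, and 1 member, Cox4i2, had an unadjusted p under 0.05 (10.6% of all genes, either direction). The count was 0 under every alternative run as well. The median was 0.01, against 0.0112 for all genes, and the median member lay at −0.01, 0.05 and 0.00 on the Rptor-/- arrays and at −0.06, 0.04 and 0.03 on the WT arrays. Groups did not overlap for 3 members in the lower direction and 4 in the higher, where 6.74% and 10.4% of all genes were of these kinds.

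Single members in DN3a cells were not called either, though the groups of some did not overlap. Cycs measured 11.34, 11.40 and 11.45 on the Rptor-/- DN3a arrays, against 11.48, 11.55 and 11.49 on the WT arrays, a difference of −0.11 that was not called. Its groups did not overlap, and its 5 probe sets were all lower, by −0.18 to −0.11. Cyc1 measured 10.48, 10.62 and 10.56 on the Rptor-/- arrays, against 10.39, 10.51 and 10.58 on the WT arrays, and Uqcrq 9.69, 9.60 and 9.73 against 9.58, 9.88 and 9.72. For both the groups overlap. Cox5a was at −0.20 (limma adjusted p = 0.481) with no overlap. Of 7 myeloid markers Lyz2 was higher in Rptor-/- DN3a cells (1.04), and 5 of the 7 had estimates below 0. Of 6 stromal markers Epcam was higher (0.67), with 3 of the 6 estimates below 0. Of 8 DN3a markers Dtx1 (1.38) and Ptcra (0.68) were higher, and all 8 estimates were above 0. Of 7 γδ markers Sox13 (0.51) and Maf (0.37) were higher, with a list median of 0.02. Among all genes 0.712% were called higher.

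The genotype effects were then compared between populations. The effect in ISP cells minus that in DN3a cells was called lower for 15 members and higher for 0, where 4.12% of all genes were lower and 2.89% higher. The smallest p belonged to Cycs (−0.66, SE 0.11; limma adjusted p = 0.000893), Cyc1 (−0.63, SE 0.11; 0.00125), Uqcr11 (−0.72, SE 0.12; 0.00131) and Uqcrq (−0.79, SE 0.14; 0.00183). In complex III 5 of 9 members were called, in complex IV 6 of 17 and in the ATP synthase 3 of 18. Leaving out single arrays gave 9 to 15 calls, with 9 without ISP Rptor-/- replicate 2 and without DN3a WT replicate 1. Of the 15 calls 7 were kept under all alternatives, those of Cycs, Cyc1, Uqcr11, Uqcrq, Cox6b1, Cox7a1 and Atp5e.

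The effect in γδ T cells minus that in ISP cells was called higher, that is less negative in γδ, for 4 members and lower for 1, where 3.63% and 2.16% of all genes were of these kinds. Complex III and its carrier made up the 4: Cyc1 at 0.53 (SE 0.11; limma adjusted p = 0.0055), Uqcrq at 0.55 (0.0247), Cycs at 0.41 (0.0252) and Uqcr11 at 0.47 (0.0294). Cox6b2 was the one lower, at −0.79 (0.027), with a value of −0.20 in γδ T cells and 0.59 in ISP cells. Cyc1 alone was kept under all alternatives, and the count was 1 without γδ WT replicate 3, 2 without ISP Rptor-/- replicate 2 or γδ Rptor-/- replicate 3, and 3 without ISP Rptor-/- replicate 3 or γδ WT replicate 1. No ATP synthase member was called. These interactions share the ISP arrays and cross the 2 sets of arrays with different medians. The effect in γδ T cells minus that in DN3a cells was called for 0 members (0.207% of all genes lower, 0.392% higher), with 9 at an unadjusted p under 0.05 (9.3% of all genes), all lower.

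WT γδ T cells were compared with WT DN3a cells to see how the complexes differ between the lineage and the stage before it. Of the 45 members 7 were higher and 2 lower in γδ, where 12.7% of all genes were higher and 12.3% lower. The median was 0.01, against −0.00406 for all genes. By complex it was 0.14 in complex IV (5 of 17 higher, 1 lower), −0.06 in complex III (1 of 9 higher) and −0.05 in the ATP synthase (1 of 18 higher, 1 lower). Groups did not overlap for 14 members higher and 7 lower in γδ, where 19.3% and 19.6% of all genes were of these kinds.

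**Figure D4:**
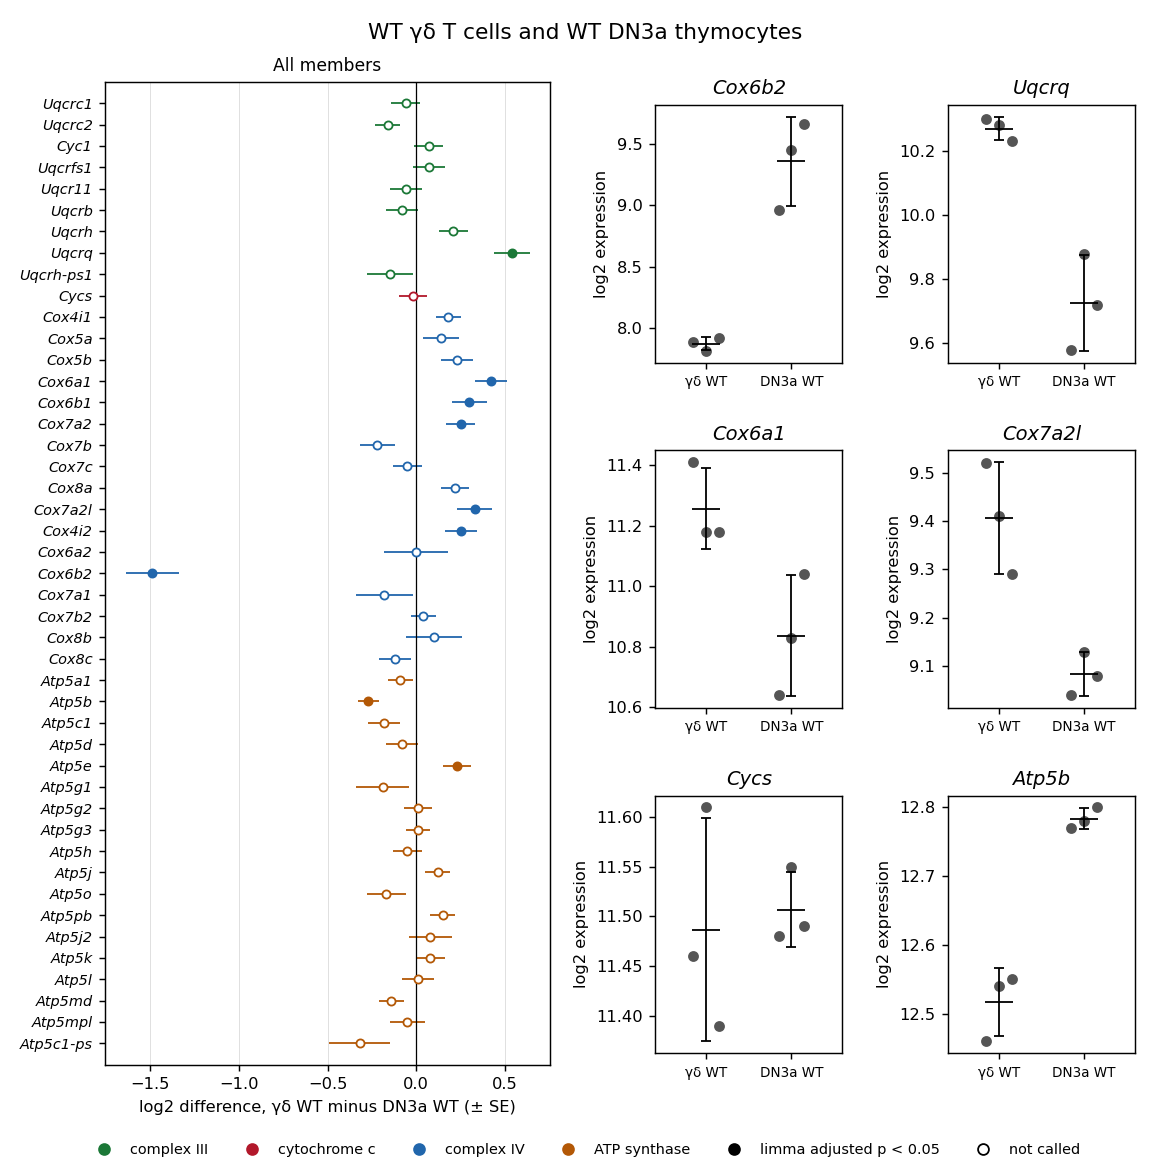
Left, log2 difference, γδ WT minus DN3a WT, with its standard error for the 45 members by complex (filled, limma adjusted p under 0.05); right, log2 expression on each array for 6 members with mean and SD. Cox6b2 lies lowest at −1.49, Uqcrq highest at 0.54, and Cycs at −0.02.

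Cox6b2, the testis form of subunit VIb, had the largest difference. It measured 7.88, 7.81 and 7.92 on the γδ WT arrays, against 8.96, 9.45 and 9.67 on the DN3a WT arrays. The γδ values were close together and every DN3a value was more than 1 log2 unit above them. The difference was −1.49 (SE 0.15; limma adjusted p = 1.69e-07), or 0.356 times the DN3a level. Its partner Cox6b1 was higher, at 0.30 (limma adjusted p = 0.0351), with 10.09 ± 0.10 on the γδ arrays, against 9.79 ± 0.10 on the DN3a arrays (SD, n = 3 each).

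Some other paralogues of complex IV were higher in γδ as well. Cox6a1 measured 11.41, 11.18 and 11.18 on the γδ WT arrays, against 10.64, 10.83 and 11.04 on the DN3a WT arrays, a difference of 0.42 (SE 0.09; limma adjusted p = 0.00142), and its muscle form Cox6a2 was at 0.00. Cox7a2l was at 0.33 (limma adjusted p = 0.0142), Cox7a2 at 0.25 (0.0182) and Cox7a1 at −0.18, not called. Cox4i2, the lung form, was at 0.25 and called (0.0402), and Cox4i1 at 0.18 and not called (0.081). The signal of Cox4i2 lay below the median gene, at 5.91 in γδ WT and 5.66 in DN3a WT cells. Its call was lost under 6 of 13 alternatives. Cox7b, Cox7b2, Cox8a, Cox8b and Cox8c lay between −0.22 and 0.22, and none was called. Of these Cox7b2, Cox8b and Cox8c also had signals below the median gene.

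In complex III Uqcrq stood out again. It measured 10.30, 10.28 and 10.23 on the γδ WT arrays, against 9.58, 9.88 and 9.72 on the DN3a WT arrays, a difference of 0.54 (SE 0.10; limma adjusted p = 0.000377). Cycs and Cyc1 were not called, at −0.02 and 0.07. The other probe sets of Cycs were at −0.31 to −0.06, so they differ in size from the one used. In the ATP synthase Atp5b was lower in γδ, with 12.46, 12.54 and 12.55 on the γδ WT arrays, against 12.77, 12.78 and 12.80 on the DN3a WT arrays. Its difference was −0.27 (SE 0.06; limma adjusted p = 0.00267). Atp5e was higher at 0.23 (limma adjusted p = 0.0485), and Atp5g1, Atp5g2 and Atp5g3 were at −0.19, 0.01 and 0.01, not called.

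Of the 9 calls between WT populations, those of Cox6b2, Uqcrq, Cox6a1 and Atp5b were kept under all alternatives. Without DN3a WT replicate 1 the count was 4 and without γδ WT replicate 1 it was 5. This comparison shares the γδ WT and DN3a WT arrays with the genotype comparisons of those populations. The 8 DN3a markers were lower and the 7 γδ markers higher in γδ, as were 5 of 6 NK markers and 3 of 3 markers of mature αβ T cells. Of 6 stromal markers 3 were lower (Epcam −0.92, Pdgfrb −0.56, Psmb11 −0.29), as was 1 of 7 myeloid markers (Lyz2 −0.89). Of the 5 ISP markers Cd8b1 was higher (1.47) and Cd24a lower (−0.80), and of 5 B cell markers Blnk was higher (0.55) and Cd79b lower (−0.45). Among all genes 12.3% were called lower and 12.7% higher in γδ, and single calls in a list are near these shares. The part of these markers in the respiratory values was not tested.

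The lists around the complexes are given here as single genes, since 12.3% of all genes were lower and 12.7% higher between WT γδ and WT DN3a cells. Tmem242, an ATP synthase assembly factor, was at −1.23 (limma adjusted p = 1.8e-09), and Lyrm7, which guards the Rieske protein before insertion, at −0.83 (5.96e-06). Of 22 complex IV assembly factors 4 were lower and 3 higher, near those shares, among them Cox14 (−0.45), Lrpprc (−0.52) and Coa4 (0.47). Of 16 regulators 6 were lower, and 2 were higher, which is near the share of all genes. Polg, the mitochondrial DNA polymerase, was at 1.17 (limma adjusted p = 1.45e-08), the helicase Twnk at −0.84 and the methyltransferase Tfb1m at −0.84. Sdha, the catalytic subunit of complex II, was at −0.38, its assembly factor Sdhaf1 at 0.46, and the ADP/ATP carrier Slc25a4 at 0.41.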

How the data were processed

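RNA from sorted thymocytes was hybridised to 19 one-colour arrays, and the authors deposited 1 log2 value per probe set and array, made with RMA in Partek 6.6 per the submitters' processing notes. The notes do not say which arrays went through RMA together; the ISP arrays and the others differ in their medians and were read as 2 sets. The number of arrays limits the precision. Sample titles gave groups and replicate numbers.

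The probe annotation gave a single symbol for 23521 of 41345 probe sets, which were used; it gave several for 1814 and left 16010 unnamed. Symbols were checked through Entrez IDs against RefSeq (GRCm38.p6), and 0 changed. Of 22180 genes 1082 had several probe sets. The members and gene lists were chosen with earlier results of these data known.

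Differences were fitted with limma 3.58.1 (lmFit, eBayes) in R 4.3.3 as 1 model of 6 group means over 19 arrays, adjusted by Benjamini-Hochberg over 22180 genes with a threshold of 0.05; interactions are differences of genotype effects. The fit was tested on simulated data. The Rptor signal also had an exact permutation test. Figures used matplotlib 3.10.9 in Python 3.11.15. Alternatives were fits on fewer arrays or on 2 tables, quantile normalization or median centring, a signal filter, all probe sets averaged, trended and robust variances, a replicate block, other member rules and each array left out. The member rule by file symbols gave the same 45 members and so could change nothing. Any member could be named, with array values kept mainly for Cycs, Cyc1, paralogue sets and the called members with the smallest p in each complex, and of other lists up to 3 genes per comparison were named by smallest p; further members and markers were named after their values were seen.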

Additional observations from a re-analysis of the deposited data

Results flagged for a closer look

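In WT ISP cells, the group with 4 arrays, 1 array lay apart from the other 3 for 5 of 46 genes examined (the members and Rptor), where chance sets 1 array apart in about 1 of 20 groups. These were Atp5k, highest on replicate 3 (11.63), Atp5o, highest on replicate 3 (6.08), Atp5c1-ps, highest on replicate 4 (2.37), Cox5b, lowest on replicate 2 (10.44), and Rptor, lowest on replicate 3 (6.34).

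The genotype effect in γδ T cells minus that in ISP cells differed by limma for 5 members, at −0.79 for Cox6b2, 0.53 for Cyc1, 0.41 for Cycs, 0.47 for Uqcr11 and 0.55 for Uqcrq.

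The genotype effect in ISP cells minus that in DN3a cells differed by limma for 15 members. In complex III with its carrier the values were −0.63 for Cyc1, −0.66 for Cycs, −0.72 for Uqcr11, −0.47 for Uqcrb, −0.39 for Uqcrc1 and −0.79 for Uqcrq. In complex IV they were −0.55 for Cox5a, −0.44 for Cox6a1, −0.90 for Cox6a2, −0.64 for Cox6b1, −0.97 for Cox7a1 and −0.39 for Cox8a. In the ATP synthase they were −0.43 for Atp5d, −0.57 for Atp5e and −0.40 for Atp5h. The call of Atp5e was kept under all alternatives, that of Atp5d was lost under 12 of 21 and that of Atp5h under 14 of 21. The second probe set of Atp5h was at −0.08 in ISP and 0.07 in DN3a cells. Those of Atp5d and Atp5e were at −0.46 and −0.34 in ISP cells and at 0.06 and 0.12 in DN3a cells.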

How the results depend on the processing

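The median of the members kept its direction in ISP and γδ T cells under each alternative run, with 1 shift beyond the spread: −0.18 in ISP cells under quantile normalization across 19 arrays, against −0.27. Medians with single arrays left out ran −0.28 to −0.22 in ISP cells, −0.14 to −0.11 in γδ T cells, −0.03 to 0.03 in DN3a cells and −0.03 to 0.03 between WT γδ and DN3a cells. Counts of called members, where they moved by over 1.5 times, were as follows. In ISP cells 26 became 16 with only ISP arrays or with 2 separate tables, which are the same fit there, and 16 to 26 with single arrays left out. In γδ T cells 3 became 0 with only γδ arrays, 5 under quantile normalization, 1 with median centring, 5 with trended and robust variances, and 0 to 3 with single arrays left out. Between WT γδ and DN3a cells 9 became 4 to 9 with single arrays left out. The γδ minus ISP interaction gave 3 with only the arrays compared, 2 under quantile normalization, and 1 to 6 with single arrays left out, against 5. The ISP minus DN3a interaction gave 9 under each of the same 2 settings and 9 to 15 with single arrays left out, against 15. The cause of these shifts was not tested; fits on fewer arrays have fewer residual degrees of freedom. Correlations of same-numbered arrays were −0.10 to 0.24. The labels do not say whether equal numbers pair the samples, and these correlations cannot settle it. The replicate block gave 23 calls in ISP cells, 0 in γδ T cells, 0 in DN3a cells and 9 between WT γδ and DN3a cells. Rptor lost its call in ISP cells with only ISP arrays or 2 tables (−0.24), under quantile normalization (−0.22), with the replicate block (−0.23) and with 5 of 7 arrays left out in turn (−0.31 to −0.18 over all 7), and in γδ T cells with only γδ arrays, 2 tables or the replicate block (−0.30), median centring (−0.26) and any 1 of 6 arrays left out (−0.33 to −0.27). Single members changed no direction among the called values.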
